A study of Mus musculus with 4 samples.

Results

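The BCL2 family decides whether mitochondria of a stressed cell stay intact or are opened, and 10 of its genes were examined in primary neural stem/progenitor cells (NSCs) of +/+ and Chd5-/- mice. The genes were taken by name, in a choice made with earlier results of these data known. They were the pro-survival genes Bcl2, Bcl2l1, Bcl2l2 and Mcl1, the effector genes Bak1 and Bok, and the BH3-only genes Bcl2l11, Bid, Bad and Bmf. They are 10 of the 18169 rows of the expression table, each had 1 row, and all 10 passed the minimum mean of 1 TPM (transcript abundance per length, scaled to the same total in each sample) that left 12576 rows for testing. Bax and Bbc3, the relatives best known as p53 targets, were not part of the set. None of the 10 genes differed between genotypes at an adjusted p-value under 0.05. The effectors Bak1 and Bok and the BH3-only genes Bad and Bmf stood 1.15 to 2.03 higher on the log2 scale in the Chd5-/- cells. Their unadjusted p-values in limma were under 0.05, a threshold that 21.9% of all tested rows passed in that direction. The pro-survival genes spanned -0.47 to 0.53 with overlapping samples throughout. The other BH3-only genes, Bcl2l11 (0.35) and Bid (0.45), lay within that span. Once trends on GC content and transcript length were removed, Bad alone kept an unadjusted p under 0.05.

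RNA-seq was done on 4 samples, 2 +/+ and 2 Chd5-/-, all labelled C57BL/6 brain. Cells came from the tissue around the ventricles of individual newborn pups and were grown in serum-free medium with epidermal growth factor and fibroblast growth factor 2, which both genotypes shared. The age entries of the samples read postnatal day 1 and 2 for the +/+ samples and 3 and 4 for the Chd5-/- samples, while the growth protocol gives postnatal day 1 throughout. If the entries are ages, age and genotype cannot be told apart. The labels state no Cre driver or clone, and they do not say whether cultures of 1 genotype came from different litters, so p-values measure the spread between these samples.

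Pro-survival BCL2 proteins hold the effectors BAK and BAX inactive at the outer mitochondrial membrane. BH3-only proteins are the stress sensors of the family, and they bind the groove of the pro-survival proteins or engage the effectors directly. Once effectors assemble into pores, cytochrome c leaves the mitochondria, the apoptosome forms and caspases are activated. In the developing brain this pathway sets how many progenitors and young neurons survive. Much of its control is on the protein (cleavage of BID, phosphorylation of BAD, rapid turnover of MCL1), which RNA levels do not show.

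Chd5 itself, the targeted gene, measured 0.39 and 0.37 TPM in +/+ against 0.06 and 0.04 TPM in Chd5-/-, below the testing minimum. All 10 NSC markers were found at a mean of at least 1 TPM, with summed levels of 7966 and 6536 TPM in +/+ and 3536 and 5917 TPM in Chd5-/-. Fabp7 was the largest part of each sum, at 5892 and 4316 TPM against 1939 and 3822 TPM. The markers did not move alike: Egfr was at 139 and 129 TPM against 147 and 324 TPM. Summed astrocyte markers were 2129 and 2244 TPM against 886 and 1753 TPM, and summed neuron markers, 4 of 8 of them at a mean of at least 1 TPM, 512 and 520 TPM against 375 and 806 TPM. Map2 alone made up 97.4% to 99.1% of the neuron sums, and Rbfox3, a marker of mature neurons, was at most 0.07 TPM. Oligodendrocyte lineage markers summed to 571 and 631 TPM against 504 and 928 TPM, and ependymal markers to 2.44 and 2.79 TPM against 9.02 and 6.06 TPM. Microglial and other blood markers (2 of 8 in the table) summed to at most 0.62 TPM in any sample, and endothelial markers (2 of 4 in the table) to at most 0.70 TPM. Mesenchymal markers summed to at most 0.17 TPM except in Chd5-/- replicate 1, where they reached 12.2 TPM (Col3a1 7.41 TPM, Dcn 4.17 TPM). The part of these differences in the results below was not tested, and in bulk RNA fewer cells of a type and less RNA per cell cannot be told apart.

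Mcl1, whose protein is short-lived and must be made continuously, was the most abundant member by far. Its mean was 240 ± 39.5 TPM (SD, n = 2) in +/+ and 185 ± 94.3 TPM (SD, n = 2) in Chd5-/-, and its rank lay in the top 3.83% to 10.8% of tested rows in each of the 4 samples. TPM is scaled by transcript length, which allows levels of different genes to be set side by side. The trend with GC content described below was not removed from these levels. After Mcl1, the +/+ order of mean levels was Bcl2l1, Bcl2l2, Bcl2, Bak1, Bid, Bcl2l11, Bmf, Bok and Bad, from 18.7 ± 0.629 TPM for Bcl2l1 to 1.47 ± 0.467 TPM for Bad (SD, n = 2 each). The ranges of neighbours over the 2 +/+ samples were apart only between Mcl1 and Bcl2l1, Bcl2l1 and Bcl2l2, Bid and Bcl2l11, and Bcl2l11 and Bmf. In Chd5-/- the order was Mcl1, Bcl2l1, Bak1, Bmf, Bcl2l2, Bid, Bcl2, Bcl2l11, Bok and Bad, and only the range of Mcl1 was apart from that of its neighbour.

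**Figure D1:**
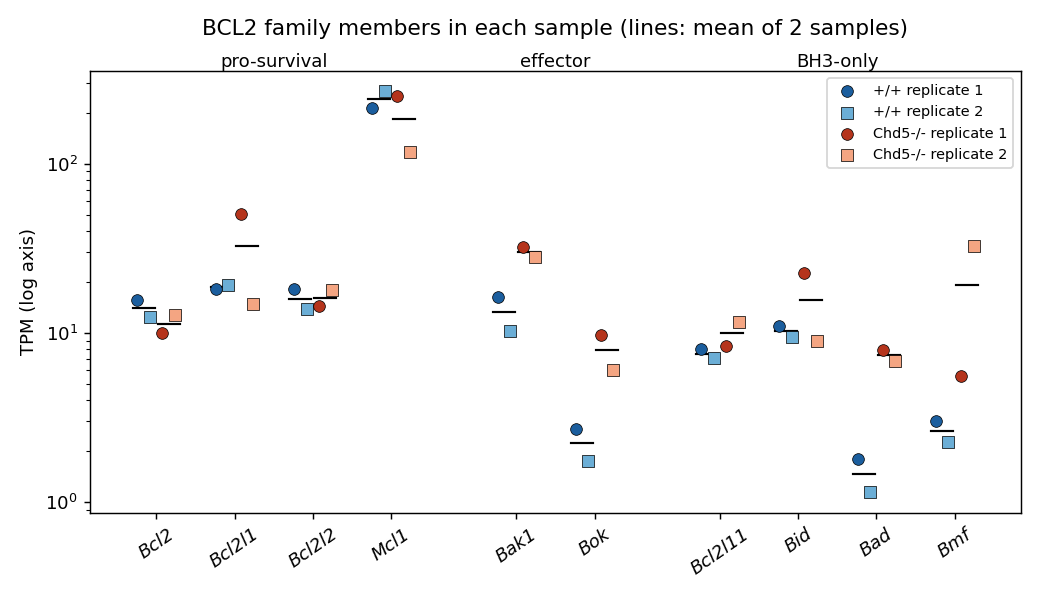
TPM of the 10 members (log axis) in each of the 2 +/+ and 2 Chd5-/- samples, 1 point per sample, with the genes ordered by role. Both Chd5-/- points lie above both +/+ points for Bak1, Bok, Bcl2l11, Bad and Bmf, and the Chd5-/- points of Bmf lie far apart at 5.55 and 32.6 TPM.

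Among the pro-survival genes, no sample set separated the genotypes. Bcl2, the founding member (chromosome 1, 106538178 to 106714274, minus strand on GRCm38, as annotated by GENCODE), was at 15.7 and 12.4 TPM in +/+ replicates 1 and 2 and at 9.95 and 12.7 TPM in Chd5-/- replicates 1 and 2. The higher Chd5-/- sample lay just above the lower +/+ sample. The log2 fold change of TPM + 1, Chd5-/- minus +/+, was -0.29 (SE 0.28, 95% interval -1.01 to 0.43, limma, Benjamini-Hochberg adjusted p = 0.562). Bcl2 was the only member below zero under every alternative processing that was run, with values of -0.12 to -0.78.

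Bcl2l1, which encodes BCL-XL together with a shorter pro-death splice form (chromosome 2, 152780668 to 152831728, minus strand), was at 18.3 and 19.1 TPM in +/+ and at 50.3 and 14.8 TPM in Chd5-/-. The +/+ samples nearly coincided, and the Chd5-/- samples fell on either side of them. The row of the table does not separate the splice forms. Its log2 fold change was 0.53 (SE 0.57, 95% interval -0.93 to 1.99, limma, Benjamini-Hochberg adjusted p = 0.594), and 1 library set its direction: the value was -0.32 without Chd5-/- replicate 1 and 1.38 without Chd5-/- replicate 2. The latter had an adjusted p of 0.0356 in limma with Benjamini-Hochberg adjustment, within a range of 0.0356 to 0.907 over all alternatives. With trends on GC content and transcript length removed the value was -0.29.

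Bcl2l2, the gene for BCL-W (chromosome 14, 54883377 to 54888234, plus strand), was at 18.1 and 13.8 TPM in +/+ and at 14.3 and 18.0 TPM in Chd5-/-. The samples of the genotypes covered nearly the same range. The log2 fold change was 0.02 (SE 0.28, 95% interval -0.69 to 0.73, limma, Benjamini-Hochberg adjusted p = 0.971), and it turned to -0.21, -0.33 and -0.42 when samples were rescaled without the 20 most abundant rows, by median-of-ratios and by quantiles, and to -0.50 once trends on GC and length were removed. The annotated Bcl2l2 gene overlaps over most of its span a same-strand gene, Gm20521 (chromosome 14, 54883441 to 54898137), that has no row in the table, so reads of Gm20521 could have been counted for Bcl2l2.

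Mcl1 (chromosome 3, 95658788 to 95663176, plus strand) was at 212 and 268 TPM in +/+ and at 251 and 118 TPM in Chd5-/-. Chd5-/- replicate 1 lay between the +/+ samples, and replicate 2 was the lowest of all. The log2 fold change was -0.47 (SE 0.41, 95% interval -1.50 to 0.57, limma, Benjamini-Hochberg adjusted p = 0.512). It was -1.01 without Chd5-/- replicate 1 (adjusted p = 0.0490 in limma, range 0.0490 to 0.937 over the alternatives) and 0.077 without Chd5-/- replicate 2.

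Both effectors were higher in each Chd5-/- sample than in either +/+ sample. Bak1 (chromosome 17, 27019810 to 27029009, minus strand) encodes BAK, which resides in the outer mitochondrial membrane and forms pores when activated. It was at 16.4 and 10.3 TPM in +/+ and at 32.2 and 28.0 TPM in Chd5-/-, a mean of 13.3 ± 4.28 against 30.1 ± 2.95 TPM (SD, n = 2 each). The log2 fold change was 1.15 (SE 0.31, 95% interval 0.37 to 1.92, limma, unadjusted p = 0.0121, Benjamini-Hochberg adjusted p = 0.132). Bak1 overlaps Ggnbp1 on the opposite strand. The libraries kept strand, but whether the counting used it is not given in the sources used here.

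Bok (chromosome 1, 93685660 to 93695764, plus strand) encodes a BAK-like protein that can permeabilize mitochondria without the usual activation by BH3-only proteins. Its level was lower throughout, at 2.72 and 1.76 TPM in +/+ and at 9.73 and 6.03 TPM in Chd5-/-. The lowest Chd5-/- sample exceeded the highest +/+ sample. The means were 2.24 ± 0.679 and 7.88 ± 2.62 TPM (SD, n = 2 each), and the log2 fold change was 1.44 (SE 0.37, 95% interval 0.50 to 2.38, limma, unadjusted p = 0.0108, Benjamini-Hochberg adjusted p = 0.129). The adjusted p-values ranged over the alternatives from 0.0899 to 0.811 for Bak1 and from 0.0516 to 0.761 for Bok, and both log2 fold changes were positive in each alternative that tested them.

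The BH3-only genes did not move alike. Bad (chromosome 19, 6941861 to 6951899, plus strand) encodes a protein that neutralizes BCL2 and BCL-XL unless survival kinases phosphorylate it. Bad had the lowest mean of the members in each genotype, at 1.80 and 1.14 TPM in +/+ and at 7.96 and 6.78 TPM in Chd5-/-. Within Chd5-/-, Bmf was lower in replicate 1 (5.55 TPM) and Bok in replicate 2 (6.03 TPM). The Chd5-/- samples were close together and well clear of the +/+ samples. Means were 1.47 ± 0.467 and 7.37 ± 0.834 TPM (SD, n = 2 each), and Bad had the smallest p-value of the 10 genes with a log2 fold change of 1.77 (SE 0.33, 95% interval 0.94 to 2.60, limma, unadjusted p = 0.00259, Benjamini-Hochberg adjusted p = 0.120). Leaving out Chd5-/- replicate 1 gave 1.67 and leaving out Chd5-/- replicate 2 gave 1.87. In those fits the spread within a genotype comes from the +/+ pair alone. Over all alternatives, the adjusted p of Bad ranged from 0.0400 to 0.759. The first part of Bad overlaps Gpr137 on the opposite strand, from position 6941861 to 6942480 of chromosome 19.

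Bmf (chromosome 2, 118528757 to 118549687, minus strand) encodes a BH3-only protein that is tethered to dynein light chains and released by loss of attachment. It was at 3.01 and 2.27 TPM in +/+ and at 5.55 and 32.6 TPM in Chd5-/-. Both Chd5-/- samples were above both +/+ samples, with replicate 1 much closer to the +/+ samples than to Chd5-/- replicate 2. The means were 2.64 ± 0.523 and 19.1 ± 19.1 TPM (SD, n = 2 each), and the log2 fold change of 2.03 was the largest and least certain of the members (SE 0.78, 95% interval 0.04 to 4.02, limma, unadjusted p = 0.0467, Benjamini-Hochberg adjusted p = 0.201). Without Chd5-/- replicate 2 it was 0.86, and without Chd5-/- replicate 1 it was 3.21 (adjusted p = 0.0257 in limma, range 0.0257 to 0.790 over the alternatives).

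Bcl2l11, the gene for BIM, which binds every pro-survival member (chromosome 2, 128126038 to 128162547, plus strand), was at 8.01 and 7.07 TPM in +/+ and at 8.31 and 11.6 TPM in Chd5-/-. The Chd5-/- samples were above the +/+ samples by a narrow margin. Its log2 fold change was 0.35 (SE 0.30, 95% interval -0.41 to 1.10, limma, Benjamini-Hochberg adjusted p = 0.507), and it was 0.01 under median-of-ratios scaling and -0.24 under quantile normalization. Bid, whose protein links death receptors to mitochondria once it is cut by caspase-8 (chromosome 6, 120891930 to 120916853, minus strand), was at 11.0 and 9.52 TPM in +/+ and at 22.5 and 8.99 TPM in Chd5-/-. Chd5-/- replicate 1 was the highest sample and replicate 2 the lowest. The log2 fold change of Bid was 0.45 (SE 0.46, 95% interval -0.71 to 1.61, limma, Benjamini-Hochberg adjusted p = 0.571), it was -0.17 without Chd5-/- replicate 1 and -0.061 under quantile normalization, and the gene's end overlaps Bcl2l13 on the opposite strand.

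**Figure D2:**
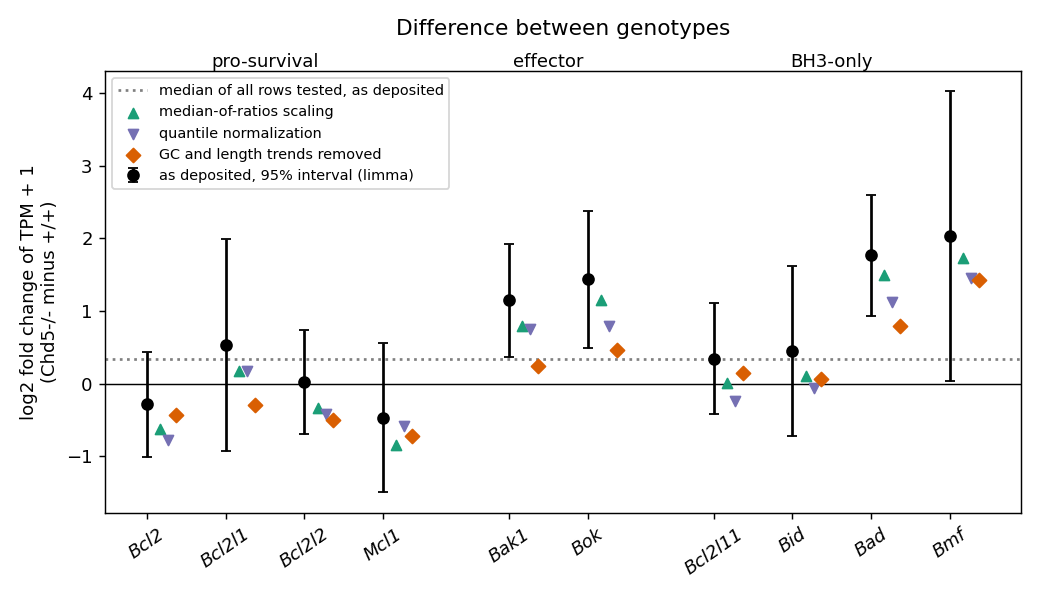
Log2 fold change of TPM + 1 (Chd5-/- minus +/+) of each member with its 95% interval from limma, and the same value under median-of-ratios scaling, after removal of trends on GC and length, and under quantile normalization. The dotted line is the median of all tested rows, 0.34. The intervals of Bak1, Bok, Bad and Bmf lie above 0, that of Bmf barely so (0.04 to 4.02), and the values with trends removed are lower for all 10 genes.

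Each count of members has to be read against the whole table, in which more rows were higher than lower in the Chd5-/- samples. At an adjusted p under 0.05 there were 0 members (0.0557% of tested rows). At an unadjusted p under 0.05 in limma, 4 of 10 members were higher in Chd5-/- (21.9% of rows) and 0 were lower (2.27% of rows). For 5 of 10 members both Chd5-/- samples were above both +/+ samples (46.3% of rows), and for 0 both were below (13.0% of rows). The share of members without overlap was thus close to that of the table. The median log2 fold change was 0.49 over the members and 0.34 over all tested rows. By role it was -0.13 over the pro-survival genes, 1.29 over the effectors and 1.11 over the BH3-only genes, so Bcl2l1 (0.53), Bid (0.45) and Bcl2l11 (0.35) sat near the median of the table and Mcl1 and Bcl2 below it.

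Under median-of-ratios scaling, which takes out most of that general shift, the median of all rows was 0.0052 and that of the members 0.14. Here 3 of 10 members (Bak1 0.79, Bok 1.15, Bad 1.50) were higher at an unadjusted p under 0.05 in limma (12% of rows) and 0 were lower (10.4% of rows). The medians by role were then -0.48, 0.97 and 0.80 for the pro-survival, effector and BH3-only genes, in the same order as before.

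The log2 fold change also went with the GC content of the transcript. Across the 12103 rows with a reference transcript, Spearman's rho between GC content and fold change was 0.62, and across the 10 members it was 0.79, where all points share the same 4 libraries and genes are not independent replicates. The members with the highest GC content were Bad (61.3%), Bok (61.0%) and Bak1 (57.1%), and the lowest was Bcl2 (46.3%). For rows of the top decile of GC content, which holds Bad and Bok, the median log2 fold change was 1.04, and 83.2% of them had both Chd5-/- samples above both +/+ samples. In the decile that holds Bak1 and Bcl2l1 these values were 0.96 and 81.8%, and in the decile that holds Bmf (53.7% GC) they were 0.71 and 71.5%. Set against the median of their own decile, Bmf was 1.32 higher, Bad 0.73, Bok 0.40 and Bak1 0.19, and Bcl2l11 and Bid 0.08 each. The pro-survival genes were all lower than theirs, Mcl1 with a difference of -0.73, Bcl2l2 of -0.56, Bcl2l1 of -0.43 and Bcl2 of -0.31.

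With loess trends on GC content and length taken out of each sample, the members' values were 1.43 for Bmf, 0.80 for Bad, 0.46 for Bok, 0.24 for Bak1, 0.14 for Bcl2l11, 0.06 for Bid, -0.29 for Bcl2l1, -0.44 for Bcl2, -0.50 for Bcl2l2 and -0.72 for Mcl1. Only Bad then had an unadjusted p under 0.05 in limma, 1 of 10 members higher (5.06% of rows) and 0 lower (5.35% of rows), with an unadjusted p of 0.0274 and a Benjamini-Hochberg adjusted p of 0.441. The median was 0.10 over the members and -0.0072 over all rows, and by role it was -0.47 for the pro-survival genes, 0.35 for the effectors and 0.47 for the BH3-only genes. What produced the trend with GC content was not tested.

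**Figure D3:**
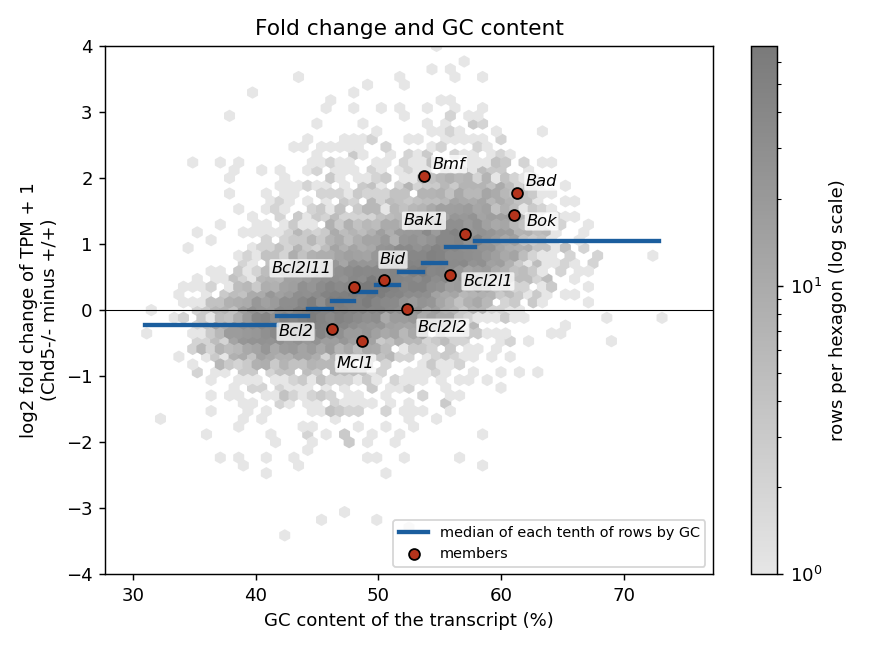
Log2 fold change of TPM + 1 (Chd5-/- minus +/+) against transcript GC content for the 12103 rows with a reference transcript (grey hexagons, rows per hexagon on a log scale), with the median of each decile of rows by GC (lines) and the 10 members (points). Bad, Bok and Bak1 lie at the GC-rich end, where the medians are 0.96 and 1.04, and 11 rows fall outside the axes.

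Sequences upstream of the gene starts are shown for the 4 genes with an unadjusted p under 0.05 and, for contrast, for Bcl2, the member that was lower under every alternative. Each line holds the 250 bases before a RefSeq start on GRCm38.p6, read 5′ to 3′ on the gene's strand, and capitals mark GC boxes (GGGCGG or, on the other strand, CCGCCC, with overlapping matches counted separately).
Bad, chr19:6941611-6941860, strand plus: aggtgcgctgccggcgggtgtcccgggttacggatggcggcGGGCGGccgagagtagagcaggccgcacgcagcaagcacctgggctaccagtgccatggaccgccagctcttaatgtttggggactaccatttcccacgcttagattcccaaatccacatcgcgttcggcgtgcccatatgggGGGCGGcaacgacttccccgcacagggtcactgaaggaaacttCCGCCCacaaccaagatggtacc
Bak1, chr17:27028628-27028877, strand minus: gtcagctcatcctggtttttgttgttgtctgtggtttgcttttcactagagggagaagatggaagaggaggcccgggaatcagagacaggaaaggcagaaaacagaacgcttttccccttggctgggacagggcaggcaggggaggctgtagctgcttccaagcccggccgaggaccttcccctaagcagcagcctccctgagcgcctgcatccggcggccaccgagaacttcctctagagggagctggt
Bok, chr1:93685325-93685574, strand plus: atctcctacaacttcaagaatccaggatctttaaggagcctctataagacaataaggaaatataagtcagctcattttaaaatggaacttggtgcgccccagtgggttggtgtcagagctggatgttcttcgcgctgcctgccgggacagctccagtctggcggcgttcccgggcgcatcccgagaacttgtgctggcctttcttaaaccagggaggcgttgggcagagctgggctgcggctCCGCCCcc
Bmf, chr2:118549687-118549936, strand minus: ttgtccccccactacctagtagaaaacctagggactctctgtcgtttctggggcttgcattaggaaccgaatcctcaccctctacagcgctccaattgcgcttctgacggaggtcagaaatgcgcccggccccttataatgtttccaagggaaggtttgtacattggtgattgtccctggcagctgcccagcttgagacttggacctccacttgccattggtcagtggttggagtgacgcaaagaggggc
Bcl2, chr1:106714291-106714540, strand minus: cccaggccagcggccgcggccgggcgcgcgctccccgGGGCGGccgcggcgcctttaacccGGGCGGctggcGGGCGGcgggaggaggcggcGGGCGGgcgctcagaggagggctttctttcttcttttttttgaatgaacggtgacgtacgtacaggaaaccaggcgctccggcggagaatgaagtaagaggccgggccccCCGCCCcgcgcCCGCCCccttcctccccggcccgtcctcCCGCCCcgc
The stretch above Bcl2 held 7 GC boxes and 36 CpG at 74.8% GC. That of Bad held 3 boxes and 21 CpG at 62.8% GC, and the one before the second RefSeq start of Bad, not shown, held 0 boxes. That of Bok held 1 box and 12 CpG at 55.2% GC, and those of Bak1 (58.4% GC) and of the outermost start of Bmf (54% GC) held 0 boxes and 8 CpG each. The Bak1 stretch lies within the longer GENCODE span of the gene. At least 1 box was found in 8 of the 16 upstream stretches of the 10 members (50%) and in 32.7% of all 32851 stretches in the table, and the median number of CpG was 12 and 6. Bid and the outermost start of Bcl2l11 held 3 boxes each, and Mcl1, the member with the lowest fold change, held 1. A match of letters is not a bound site.

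The Chd5-/- samples differed from each other more than the +/+ samples did, among the members and across the table. The median absolute log2 difference between replicates was 0.32 in +/+ and 0.52 in Chd5-/- over the members, against 0.25 and 0.40 over all tested rows. Between the Chd5-/- samples 4 of 10 members differed by more than 1 on the log2 scale, which held for 16.8% of rows, whereas 0 members did between the +/+ samples (4.05% of rows). Bcl2l1 (1.70), Bid (1.23) and Mcl1 (1.09) were higher in Chd5-/- replicate 1, and Bmf was higher in replicate 2 with a difference of -2.36, which 2.73% of rows matched or passed. Bak1 (0.19) and Bad (0.20) were the most even members between the Chd5-/- samples.

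That split reached the calls. In limma with the lone Chd5-/- sample assumed to vary like the others, 3 of 10 members passed an adjusted p of 0.05 without Chd5-/- replicate 1 (Bad 1.67, Bmf 3.21, Mcl1 -1.01) beside 9.92% of rows. Without Chd5-/- replicate 2, 2 of 10 passed (Bad 1.87, Bcl2l1 1.38) beside 8.64% of rows. Bad was the one member called in both. Mesenchymal markers were at 12.2 TPM in replicate 1 and at 0.17 TPM in replicate 2. Summed NSC markers were at 3536 and 5917 TPM, of which Fabp7 made up 1939 and 3822 TPM. The part of these in the members' difference was not tested.

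**Figure D4:**
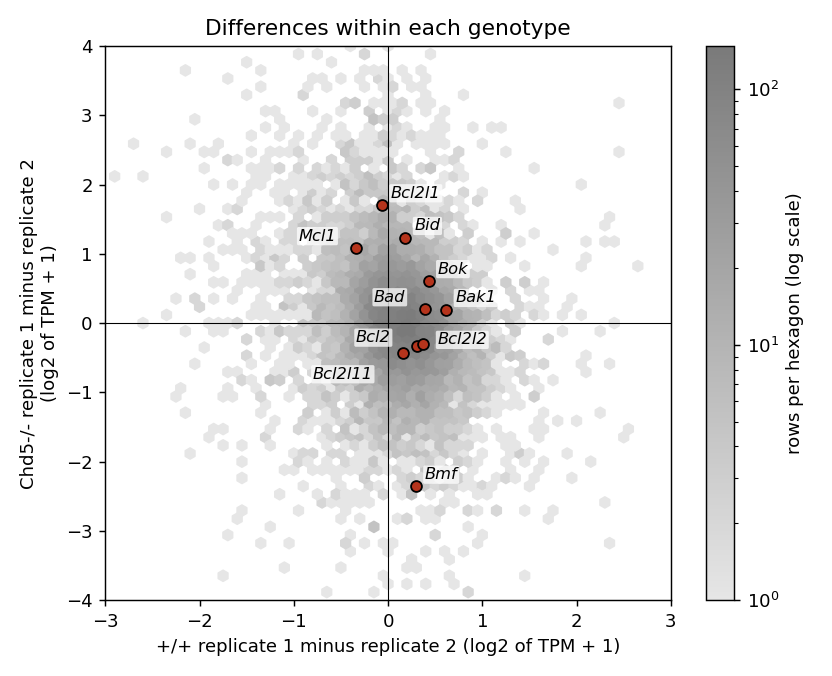
Difference between replicates 1 and 2 in log2 of TPM + 1, for +/+ (horizontal) and Chd5-/- (vertical), for all tested rows (grey hexagons, rows per hexagon on a log scale) and the 10 members (points). Bcl2l1, Bid and Mcl1 lie above 1 and Bmf below -2 on the vertical axis, all members lie within 1 of 0 on the horizontal axis, and 72 rows fall outside the axes.

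The members were also summed by role within each sample. The pro-survival genes summed to 264 and 313 TPM in +/+ and to 326 and 163 TPM in Chd5-/-, and Mcl1 made up 72.2% to 85.5% of each sum. The BH3-only genes summed to 23.8 and 20.0 TPM in +/+ and to 44.3 and 59.95 TPM in Chd5-/-, and the effectors to 19.1 and 12.1 TPM against 41.9 and 34.1 TPM. Both of the pro-death sums were thus higher in each Chd5-/- sample, while the pro-survival sum was lowest in Chd5-/- replicate 2. Among all tested rows, 46.3% had both Chd5-/- samples above both +/+ samples. That share was 81.8% in the GC decile of Bak1 and 83.2% in that of Bok and Bad. The order of the pro-survival sums depended on the scaling between samples. Under median-of-ratios scaling they were 280 and 375 in +/+ and 285 and 141 in Chd5-/-. There +/+ replicate 2 took the place of Chd5-/- replicate 1 as the highest. The pro-death sums kept their order of genotypes, at 25.3 and 23.9 against 38.8 and 51.9 for the BH3-only genes and 20.3 and 14.4 against 36.7 and 29.5 for the effectors.

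Ratios within a sample are free of that scaling. The ratio of pro-survival to BH3-only TPM was 11.1 and 15.7 in +/+ and 7.36 and 2.72 in Chd5-/-, and that of pro-survival to effector TPM was 13.8 and 25.9 against 7.77 and 4.79. Both ratios were lower in each Chd5-/- sample than in either +/+ sample, as a description with no test. On the log2 scale the first ratio was 3.47 and 3.97 against 2.88 and 1.45, a difference of -1.56, which was -0.98 without Mcl1, -1.43 without Bad and -1.08 without Bmf. With GC and length trends removed the ratio was 3.41 and 3.85 against 2.98 and 1.60. The pro-survival to effector ratio depended more on those trends: its log2 values were 3.79 and 4.70 against 2.96 and 2.26, a difference of -1.63, and 3.54 and 4.23 against 3.29 and 2.57 after their removal, a difference of -0.96. For the BH3-only ratio the difference was -0.84 without Chd5-/- replicate 2, the sample with high Bmf and low Mcl1, and -2.27 without Chd5-/- replicate 1.

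The make-up of the BH3-only sum differed in that sample. Bmf was 54.3% of it in Chd5-/- replicate 2 and 11.4% to 12.7% in the other samples. Bid was 15.0% of it there and 46.1% to 50.7% elsewhere. The share of Bcl2l11 was 33.7% and 35.4% in +/+ and 18.8% and 19.4% in Chd5-/-, and that of Bad was 7.57% and 5.70% in +/+ and 18.0% and 11.3% in Chd5-/-. Bcl2l1 was 1.17 and 1.54 times Bcl2 in +/+ and 5.06 and 1.16 times Bcl2 in Chd5-/-, so this balance stood out only in Chd5-/- replicate 1.

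**Figure D5:**
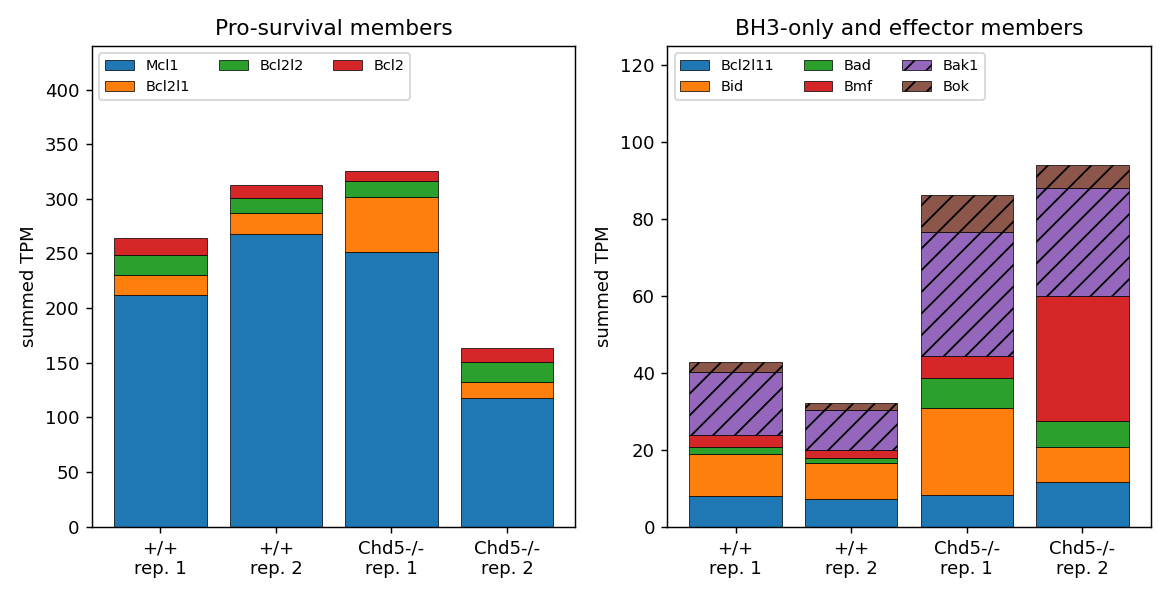
Summed TPM of the pro-survival, BH3-only and effector members in each of the 4 samples, with each gene's part of the sum. Mcl1 fills 72.2% to 85.5% of every pro-survival bar, and Bmf fills 54.3% of the BH3-only bar of Chd5-/- replicate 2.

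Genes around the family are given by their counts, to be read beside the 21.9% of rows higher and 2.27% lower. Of 11 apoptosome and caspase genes, 2 were higher and 0 lower at an unadjusted p under 0.05, with a median log2 fold change of 0.49. Of 9 genes for inhibitors of apoptosis and their mitochondrial antagonists 2 were higher and 0 lower (median 0.19), and of 8 death receptor pathway genes 2 were higher and 0 lower (median 0.19). Of 5 tested other relatives of BCL2 (13 listed, 9 with a row) 0 were higher and 0 lower (median 0.24). Of 27 tested partners and regulators of the member proteins 7 were higher and 0 lower (median -0.09). No gene of these lists had an adjusted p under 0.05 in limma, beside the 0.0557% of rows that did.

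Cycs, which encodes the cytochrome c that effectors release, was at 393 and 499 TPM in +/+ and at 375 and 84.7 TPM in Chd5-/-, a log2 fold change of -1.30 (limma, Benjamini-Hochberg adjusted p = 0.314). Casp8, which encodes the protease that cuts BID, was at 0.40 and 0.92 TPM against 7.58 and 1.18 TPM (log2 fold change 1.40, adjusted p = 0.290 in limma). Its level was thus high in the same Chd5-/- sample as that of Bid. Endog, a mitochondrial nuclease gene, was at 0.81 and 0.92 TPM against 4.11 and 4.05 TPM (1.45, adjusted p = 0.121 in limma). Xiap, the caspase inhibitor, was the most abundant gene of its list at 108 and 104 TPM against 80.4 and 93.8 TPM, and Birc6 had the lowest fold change there (-0.31).

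In the death receptor list the extremes were the adaptor Tradd (2.15 and 1.24 TPM against 4.81 and 4.98 TPM, log2 fold change 1.15) and the caspase-8 inhibitor Cflar (31.6 and 44.7 TPM against 29.2 and 22.1 TPM, -0.55), and Tnfrsf1a was the most abundant (0.14). Among other relatives they were Bnip3 (156 and 291 TPM against 516 and 186 TPM, 0.54) and Bcl2l12 (0.06). Vdac1, the outer membrane channel, was the most abundant partner and had the lowest value of its list at 1687 and 1752 TPM against 1227 and 877 TPM (-0.73, adjusted p = 0.209 in limma). The highest was Mapk3, the gene for ERK1, at 30.2 and 20.6 TPM against 80.4 and 101 TPM (1.81, adjusted p = 0.120 in limma). Named after their values were seen, Akt1 (1.30), Pim1 (1.50) and Pim3 (1.42), genes for kinases that phosphorylate BAD, were also among the 7 partners higher at an unadjusted p under 0.05, and their GC content was 59.7%, 56.0% and 61.9%.

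Also named after their values were seen are 3 of the genes with a pattern like that of Bid. Pmaip1, the gene for the BH3-only protein NOXA, was at 24.7 and 16.8 TPM in +/+ and at 64.9 and 7.76 TPM in Chd5-/-. Fas was at 28.2 and 48.3 TPM against 64.7 and 21.9 TPM, and Tnfrsf10b, another death receptor gene, at 14.4 and 21.1 TPM against 33.6 and 9.72 TPM. All 3 were highest in Chd5-/- replicate 1 and lowest in Chd5-/- replicate 2, as was Bid. The same held for the pro-survival gene Bcl2l1 and the partners or antagonists Vdac2, Aifm1, Bag1, Dynll1, Foxo1, Mapk8, Ywhag and Ywhah. The order was thus not particular to Bid or to death receptor genes. How many of all rows share this order was not counted.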

How the data were processed

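RNA-seq libraries from 2 +/+ and 2 Chd5-/- NSC samples were made with a stranded mRNA kit. The authors deposited 1 table of TPM, whose columns have equal sums, so depth is unknown and abundant rows shift all others. The submitters' processing notes name Bowtie2 2.2.3, RSEM 1.2.20 and mm10. The annotation and strand setting are not given in the sources used here.

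Columns were assigned to samples by name. Rows averaging at least 1 TPM were tested as log2(TPM + 1) with limma 3.58.1 in R 4.3.3 (eBayes with trend, two-sided, genotype only), with Benjamini-Hochberg adjustment over all 12576 rows. The values are not counts, so no count test was used. The fold change of low genes is understated on this scale. GC content and length came from 1 GENCODE M21 transcript per gene on GRCm38 (96.2% of tested rows), and trends were removed by loess with a span of 0.5. Promoter sequences are from RefSeq, and all 10 members matched. The fit was run on simulated data with the same spread in both genotypes and no trend on GC content. Since these data differ in both respects, that run cannot show how the fit handles them.

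All 10 members, Chd5, and from each pathway list the largest and smallest fold change and the most abundant gene were named, and any other gene after its values were seen. The members and lists were chosen with earlier results of these data known. Alternatives covered the pseudocount, filter, scaling, GC and length trends, variance estimate, replicate block and left-out samples.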

Additional observations from a re-analysis of the deposited data

How the results depend on the processing

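With 2 samples per genotype and no depth in the table, small differences of single members are out of reach. Bak1, Bok, Bad and Bmf stayed above 0 and Bcl2 below 0 under every alternative that tested them. A minimum mean of 10 TPM left out Bok, Bcl2l11 and Bad. No member had an adjusted p under 0.05 in limma with all 4 samples, and that count changed when either Chd5-/- sample was left out. Of the 4 members higher at an unadjusted p under 0.05 in limma, 1 was left with the minimum of 10 TPM (18.4% of rows higher). With quantile normalization 2 were left (8.77%). Removal of GC and length trends left 1 (5.06%), and adding the replicate block to that left 0 (3.60%). The count of lower members went from 0 to 1 with quantile normalization (Bcl2), beside 8.14% of rows. Both counts also changed when single samples were left out. The median log2 fold change of 0.49 became 0.14 with median-of-ratios scaling, 0.055 with quantile normalization, 0.27 when rescaled without the 20 most abundant rows and 0.10 with trends removed, and was 0.37 to 0.96 without single samples. Signs turned for Bcl2l1 (-0.29 with trends removed, with or without the block, and -0.32 to 1.38 without single samples, the lowest without Chd5-/- replicate 1), Bcl2l2 (-0.33, -0.42 and -0.21 with the same 3 scalings, -0.50 with trends removed, with or without the block, -0.16 without +/+ replicate 2, -0.13 without Chd5-/- replicate 2 and at most 0.21 without single samples), Mcl1 (-1.01 to 0.077 without single samples, the highest without Chd5-/- replicate 2), Bcl2l11 (-0.24, quantile) and Bid (-0.061, quantile, and -0.17 to 1.07 without single samples). The cause was not tested. The log2 ratio of pro-survival to BH3-only TPM kept its direction throughout, and that to effector TPM, with trends removed as an alternative added after seeing the data, went from -1.63 to -0.96.

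The labels do not say whether equal replicate numbers pair the samples. Differences between replicates 1 and 2 correlated at -0.15 between the genotypes, a value that cannot show whether samples shared a litter or day. With the replicate number as a block 0 rows passed an adjusted p of 0.05 in limma and 4 members were higher at an unadjusted p under 0.05, beside 16.8% of rows. With crossed pairs, added after seeing the data, 5 rows passed.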
